A study of Mus musculus with 6 samples.

Results

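The enzymes that make cholesterol and fatty acids, and the proteins that control them, were followed as a set of 28 genes by RNA sequencing in mouse samples whose label is skeletal muscle. The members were taken by gene symbol from the deposited counts. All 28 were found once each among the 43432 genes of every file, and all 28 passed the filter on low counts, as did 12881 genes in all. The series holds 6 libraries, 3 whose titles say control and 3 whose titles say FID, all with the tag D3; neither abbreviation is explained in the labels. "Control" and "FID" below stand for the libraries with those titles. The study removes Igf1 from fibro-adipogenic progenitors (FAPs), mesenchymal cells resident in muscle, and asks what these cells do without their own IGF-I. The labels name no genotype, allele or Cre driver for either group. Their protocols, worded alike for all libraries, state tamoxifen on 5 days in a row (100 ug per g) to mice aged 12 to 13 weeks of both sexes, followed by at least 1 week of washout. They describe RNA from tissue and from primary FAPs without telling which was sequenced. Nothing in them says that the libraries of a group are from different animals. Each p-value therefore sets the group difference against the spread between these libraries, which may be partly technical.

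Cholesterol is built from acetyl-CoA. Acat2 and Hmgcs1 lead into the mevalonate pathway, whose kinases, decarboxylase, isomerase and farnesyl diphosphate synthase supply isoprenoid units. Fdft1 joins these into squalene, Sqle and Lss turn squalene into the first sterol, lanosterol, and a further series of enzymes trims lanosterol to cholesterol. The transcription factor SREBP2, encoded by Srebf2, drives the genes of this route, and SREBP1, encoded by Srebf1, drives fatty acid synthesis. When cell sterols are high, the escort protein SCAP is held in the endoplasmic reticulum by the INSIG proteins and SREBP is not released. High sterols also lead to oxysterols, which activate LXR, the factor behind the cholesterol exporters Abca1 and Abcg1. Fatty acid synthesis starts with acetyl-CoA carboxylase, encoded by Acaca, continues with fatty acid synthase, encoded by Fasn, and the stearoyl-CoA desaturases Scd1 and Scd2 then add a double bond.

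The label skeletal muscle was not matched by markers of muscle fibres. Summed over 8 myofibre genes, the level lay between 6.28 and 52.6 CPM (counts per library of equal size, after TMM scaling) in the 6 libraries, and the muscle creatine kinase gene Ckm stayed at or below 1.19 CPM. Of 9 adipocyte markers, summing to 349 to 878 CPM, 3 were abundant enough to be tested. These were Fabp4 at 316 to 759 CPM, Pnpla2 at 22.7 to 89.00 CPM and Lipe at 9.37 to 27.5 CPM. Cidec, Lep and Retn had no count in any library, Adipoq at most 0.593 CPM and Plin1 at most 2.37 CPM. A count of 0 allows up to 3 counts, or 0.293 to 0.593 CPM depending on the library, for counting error only. Igf1, the targeted gene, stood at 134, 60.4 and 106 CPM in control 1 to 3, against 109, 107 and 81.6 CPM in FID 1 to 3 (edgeR log2 fold change -0.01 with SE 0.28, adjusted p 0.99), so the groups overlapped in counts over the whole gene; which part of the gene is deleted is not given in the labels. The libraries held 5201853 to 10093757 gene counts. Control 1 had the fewest and stood apart in its cell markers: 7 endothelial genes summed to 2878 CPM there and to 899 to 1257 CPM in the FID libraries, with 1397 and 989.6 CPM in control 2 and 3. Macrophage markers, 10 genes, summed to 3413 to 5264 CPM in control and to 7159 to 9610.3 CPM in FID without overlap. FAP markers, also 10 genes, summed to 4879.6 to 5509 CPM in control and 4306 to 5722 CPM in FID, 8 of the 10 having a log2 fold change below 0 (median -0.47). The sum of the other 9 without Ly6a, left out after its values were seen, was 4445 to 4889 CPM in control and 3057 to 3809 CPM in FID, without overlap. Ly6a was higher in FID (edgeR log2 fold change 1.61 with SE 0.51), so leaving it out by its values favours such a gap. In such bulk RNA, fewer cells of a type and less RNA per cell cannot be told apart.

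Between the groups, no member of the set passed the test. In edgeR's quasi-likelihood test, adjusted over all 12881 genes after Benjamini and Hochberg, 0 of the 28 genes passed 0.05, where 0% of all genes did. Further, 0 reached an unadjusted p under 0.05, where 19% of all genes did. The values of the groups were without overlap in 25.3% of all genes and in 0 of the 28. DESeq2 called 5.93% of all genes after adjustment and 0 members, 1 member, Fasn, having an unadjusted p under 0.05 by that tool, where 19.2% of all genes had one. The log2 fold changes of FID over control ran from -0.51 (Fasn) to 0.28 (Msmo1) with a median of -0.07, beside -0.02 for all genes tested. There were 21 members below 0 and 7 above, where 52.2% of all genes lay below 0. Under limma-voom the split was 14 and 14.

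What the set did show was a wide and shared spread among the control libraries. The 18 enzymes that lead from acetyl-CoA to cholesterol summed to 367, 744 and 1353 CPM in control 1 to 3 and 817, 635 and 918 CPM in FID 1 to 3. Control 1 was therefore the lowest library and control 3 the highest, and the FID libraries lay between them. The level in control 3 over that in control 1 had a median of 3.48-fold over the 18 enzymes and of 0.987-fold over all genes tested. Of the 18 enzymes, 15 were more than 2-fold higher in control 3 than in control 1, as were 4.58% of all genes tested. In 16 of the 18, control 1 was the lowest and control 3 the highest of the 6 libraries, an order that 6.58% of all genes tested showed. The exceptions were Ebp, lowest in control 1 and highest in FID 2, and Dhcr7, lowest in FID 2 and highest in control 3.

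**Figure D1:**
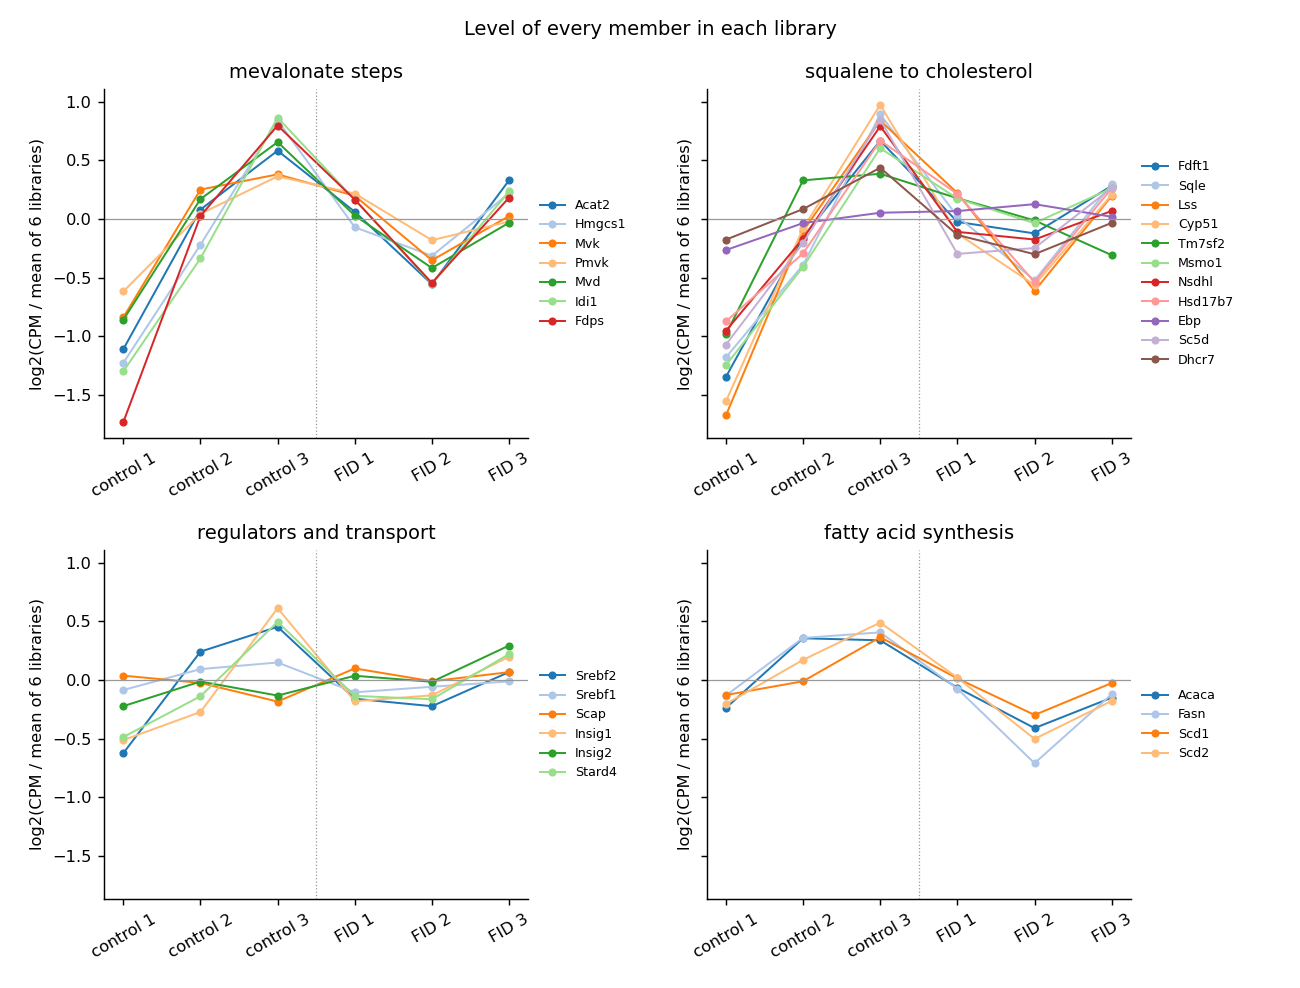
Level of each of the 28 members in each library, as the log2 of its CPM over its mean CPM in the 6 libraries, in 4 panels by pathway step. Lines join the values of 1 gene and imply no order of the libraries. In the panels of the cholesterol enzymes nearly all lines are lowest in control 1 and highest in control 3, while the regulators and the fatty acid genes spread less.

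The 7 genes of the first steps, up to farnesyl diphosphate, were all lowest in control 1 and highest in control 3. Hmgcs1, which joins acetyl-CoA units to HMG-CoA (ENSMUSG00000093930, mm10 chromosome 13, 119690379 to 119708260, plus strand), stood at 68.6, 138 and 288 CPM in control 1 to 3, against 153, 129 and 187 CPM in FID 1 to 3. The control libraries covered the whole range of the FID libraries and went beyond it on both sides. Averages with SD over 3 libraries were 165 ± 112 CPM for control and 156 ± 29.03 CPM for FID (edgeR log2 fold change -0.08 with SE 0.46, adjusted p 0.944). The fold of FID over control was 0.947 with an approximate 95% interval of 0.453 to 1.98.

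Fdps, the farnesyl diphosphate synthase gene (ENSMUSG00000059743, chromosome 3, 89093588 to 89101959, minus strand), had the widest spread of the 7 genes of these steps. It stood at 27.3, 92.3 and 158 CPM in control 1 to 3, against 102, 62.2 and 103 CPM in FID 1 to 3, so that control 3 was 5.77-fold above control 1. It averaged 92.4 ± 65.1 CPM for control and 88.96 ± 23.2 CPM for FID (edgeR log2 fold change -0.06 with SE 0.54, adjusted p 0.961). Idi1, the isomerase that interconverts the C5 building blocks (ENSMUSG00000058258, chromosome 13, 8885501 to 8892451, plus strand), stood at 11.1, 21.6 and 49.6 CPM across control 1 to 3 and 30.5, 18.6 and 32.1 CPM across FID 1 to 3 (edgeR log2 fold change -0.04 with SE 0.49, adjusted p 0.9751). In both genes the control values enclosed all FID values.

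The other 4 genes of these steps followed the same order in control. Acat2, the cytosolic thiolase, stood at 12.7, 28.9 and 40.9 CPM across control 1 to 3 and 28.5, 18.6 and 34.4 CPM across FID 1 to 3. Mvk, the mevalonate kinase, stood at 15.4, 32.8 and 35.9 CPM across control 1 to 3 and 31.7, 21.6 and 28.1 CPM across FID 1 to 3. Pmvk, the next kinase, stood at 13.6, 21.6 and 26.9 CPM across control 1 to 3 and 24.3, 18.5 and 20.6 CPM across FID 1 to 3 and had the narrowest control range of the 7, 1.97-fold. Mvd, the decarboxylase, stood at 10.3, 20.98 and 29.4 CPM across control 1 to 3 and 19.04, 13.96 and 18.3 CPM across FID 1 to 3 and was the only one of the 7 with a log2 fold change beyond 0.2 in either direction (edgeR log2 fold change -0.26 with SE 0.34, adjusted p 0.715). Without control 1, Mvd did not overlap between the groups, as 39.5% of all genes did not, and had a log2 fold change of -0.56 with SE 0.21 (edgeR adjusted p 0.208). Without control 3 the log2 fold change of Mvd was 0.12.

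From squalene onward the pattern continued. Sqle, the squalene epoxidase that takes the first oxygen-using step (ENSMUSG00000022351, chromosome 15, 59315077 to 59331192, plus strand), stood at 25.7, 44.4 and 108 CPM in control 1 to 3, against 59.2, 40.5 and 71.5 CPM in FID 1 to 3. It averaged 59.4 ± 43.1 CPM for control and 57.1 ± 15.6 CPM for FID (edgeR log2 fold change -0.07 with SE 0.48, adjusted p 0.954; fold interval 0.436 to 2.09). Cyp51, the lanosterol demethylase (ENSMUSG00000001467, chromosome 5, 4081145 to 4104746, minus strand), stood at 42.1, 117 and 243 CPM in control 1 to 3, against 114, 83.8 and 143 CPM in FID 1 to 3, a 5.77-fold range within control. It averaged 134 ± 102 CPM for control and 113 ± 29.5 CPM for FID (edgeR log2 fold change -0.25 with SE 0.54, adjusted p 0.838). In both genes the highest FID library, FID 3, lay well below control 3 and the lowest, FID 2, well above control 1.

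Lss, which closes squalene epoxide into lanosterol (ENSMUSG00000033105, chromosome 10, 76531588 to 76557138, plus strand), stood at 5.93, 17.6 and 33.9 CPM across control 1 to 3 and 22.1, 12.4 and 21.7 CPM across FID 1 to 3 (edgeR log2 fold change -0.06 with SE 0.53, adjusted p 0.962). Fdft1, the squalene synthase gene (ENSMUSG00000021273, chromosome 14, 63145150 to 63179578, minus strand), stood at 16.4, 37.5 and 66.3 CPM across control 1 to 3 and 41.02, 38.3 and 50.8 CPM across FID 1 to 3 (edgeR log2 fold change 0.10 with SE 0.43, adjusted p 0.923). Fdft1 overlaps Ctsb, an abundant lysosomal protease gene on the opposite strand, and the labels do not state how strand was counted, so reads of the 2 genes may be mixed. Cyp51 likewise overlaps Akap9 on the opposite strand, and Tm7sf2 overlaps Vps51 on its own strand.

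Among the later enzymes Msmo1, the C4-methyl sterol oxidase, had the largest positive value of the 28. It stood at 17.01, 30.4 and 61.3 CPM in control 1 to 3, against 45.5, 39.4 and 48.4 CPM in FID 1 to 3 (edgeR log2 fold change 0.28 with SE 0.40, adjusted p 0.742). All FID libraries lay above control 1 and 2 and below control 3. Without control 3 the groups did not overlap, as in 39.9% of all genes, and the log2 fold change was 0.91 with SE 0.26 (edgeR adjusted p 0.173). Without control 1 it was -0.05. Nsdhl, a sterol dehydrogenase, read 14.6, 25.2 and 49.01 CPM across control 1 to 3 and 26.3, 25.1 and 29.7 CPM across FID 1 to 3. Sc5d, the sterol C5 desaturase, read 12.5, 22.7 and 47.1 CPM across control 1 to 3 and 21.3, 22.05 and 31.4 CPM across FID 1 to 3. Hsd17b7, a ketosteroid reductase of the same route, read 9.49, 14.2 and 27.6 CPM across control 1 to 3 and 20.2, 11.97 and 20.9 CPM across FID 1 to 3. These 3 genes again had control 1 lowest and control 3 highest.

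The remaining 3 enzymes differed from this picture in size or in order. Tm7sf2, a C14 sterol reductase, was the least abundant member, also per length, at 2.57, 6.39 and 6.64 CPM across control 1 to 3 and 5.75, 5.04 and 4.11 CPM across FID 1 to 3, resting on as few as 13 counts in control 1. Ebp, the sterol isomerase, stood at 43.3, 50.8 and 53.99 CPM across control 1 to 3 and 54.5, 56.8 and 52.7 CPM across FID 1 to 3 and had a range of only 1.31-fold over all 6 libraries (edgeR log2 fold change 0.15 with SE 0.13, adjusted p 0.567). Dhcr7, which completes cholesterol from 7-dehydrocholesterol, stood at 18.2, 21.8 and 27.8 CPM in control 1 to 3, against 18.7, 16.7 and 20.1 CPM in FID 1 to 3 (edgeR log2 fold change -0.30 with SE 0.19, adjusted p 0.422). FID 1 and FID 3 slightly exceeded control 1, the lowest control, and FID 2 lay below it. With control 1 left out the groups did not overlap, as 39.5% of all genes did not. The log2 fold change was then -0.43 with SE 0.17 (edgeR adjusted p 0.226), and it was -0.10 with control 3 left out.

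**Figure D2:**
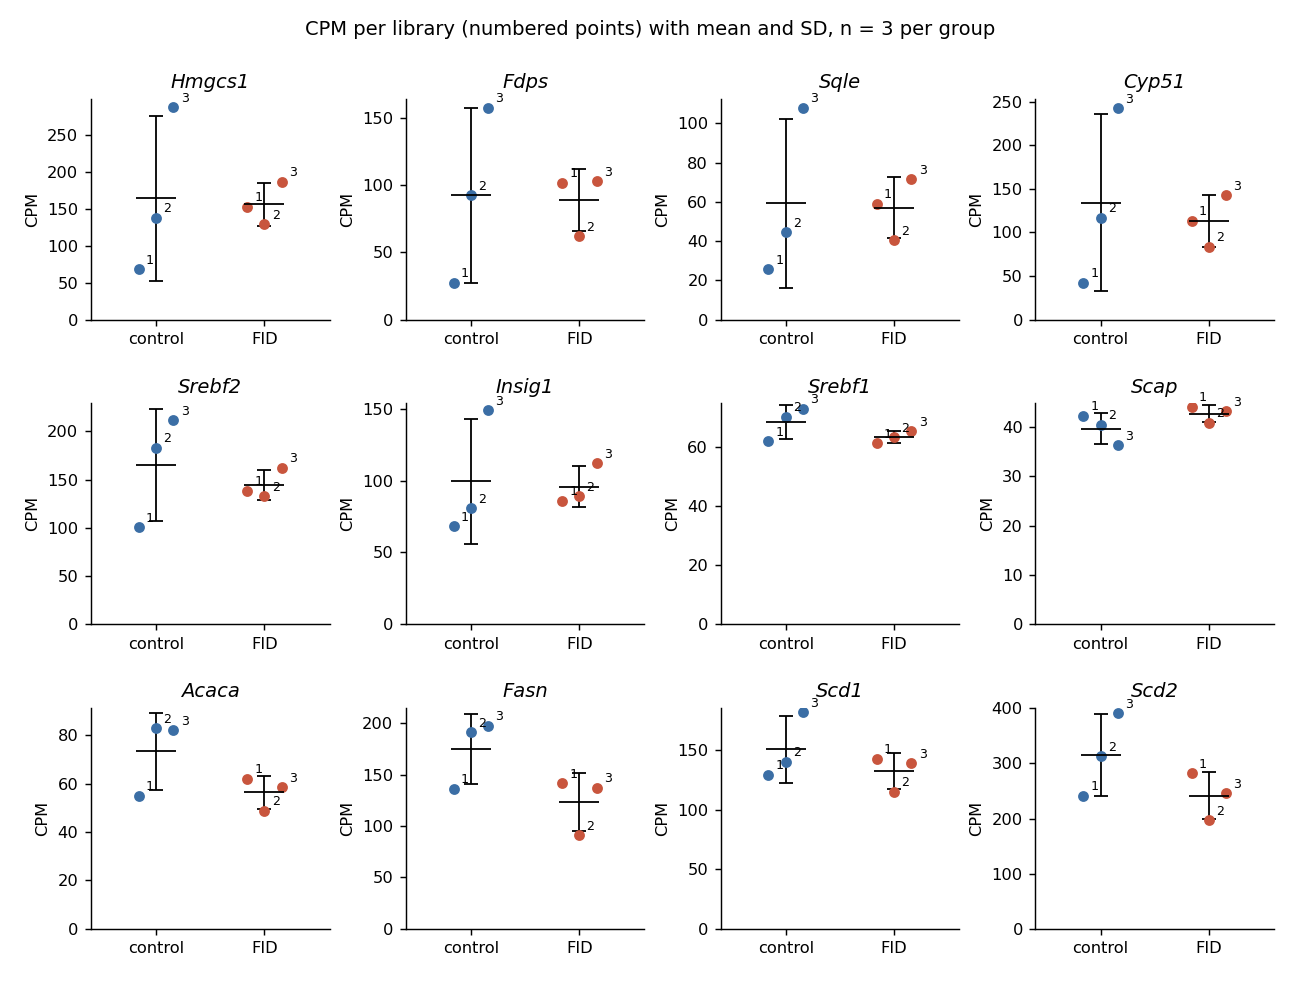
CPM of 12 members in each library (points numbered by replicate) with the mean and SD of each group (n = 3), on linear axes from 0. The 4 enzymes in the top row and Srebf2 and Insig1 spread far more in control than in FID; Srebf1 and Scap are flat, and the 4 fatty acid genes have lower means in FID with overlapping groups.

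The proximal promoters of these enzymes are shown because the genes shared this order of libraries. RefSeq promoter windows (GRCm38.p6, the assembly of mm10; 250 bases before to 50 after a gene's start) were listed for 22 of the 28 members; those of Fdps, Fdft1, Sqle, Stard4, Scd1 and Scd2 were not listed. RefSeq starts can differ from the GENCODE starts given with each gene. The listed window of Acaca (chr11:84195188-84195487) lies far inside its annotated gene, which starts at 84129672. Printed 5′ to 3′ on the gene's strand are the 250 bases before the start for Hmgcs1 (chr13:119690101-119690350, plus strand) and for the 3 enzymes with a single listed window and the widest range in control. These are Cyp51 (chr5:4104698-4104947, minus strand), Lss (chr10:76531355-76531604, plus strand) and Idi1 (chr13:8885356-8885605, plus strand). The printed bases of these 3 reach into the gene as GENCODE annotates it. Capitals mark CCAAT, the box bound by NF-Y, in either orientation (reading ATTGG on the opposite strand), and TCACNCCAC, a form of the sterol regulatory element bound by SREBP.
Hmgcs1: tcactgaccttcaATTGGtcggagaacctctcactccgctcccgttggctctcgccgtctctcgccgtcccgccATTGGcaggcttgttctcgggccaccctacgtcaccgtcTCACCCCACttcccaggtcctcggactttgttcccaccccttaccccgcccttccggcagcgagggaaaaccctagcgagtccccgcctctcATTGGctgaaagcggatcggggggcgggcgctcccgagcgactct
Cyp51: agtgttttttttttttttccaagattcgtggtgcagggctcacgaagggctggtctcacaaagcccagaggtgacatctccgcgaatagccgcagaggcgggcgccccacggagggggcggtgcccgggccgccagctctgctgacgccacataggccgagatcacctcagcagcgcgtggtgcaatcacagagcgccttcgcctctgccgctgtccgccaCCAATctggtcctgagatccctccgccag
Lss: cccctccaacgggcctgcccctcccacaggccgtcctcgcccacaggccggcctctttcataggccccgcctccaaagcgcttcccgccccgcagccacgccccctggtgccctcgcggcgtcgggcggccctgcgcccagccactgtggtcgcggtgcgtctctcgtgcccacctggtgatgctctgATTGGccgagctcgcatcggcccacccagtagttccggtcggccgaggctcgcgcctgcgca
Idi1: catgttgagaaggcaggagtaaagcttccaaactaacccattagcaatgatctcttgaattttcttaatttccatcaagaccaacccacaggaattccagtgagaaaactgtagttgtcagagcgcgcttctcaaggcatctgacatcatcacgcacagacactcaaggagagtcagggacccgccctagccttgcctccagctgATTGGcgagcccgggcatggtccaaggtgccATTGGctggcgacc
The printed bases of Hmgcs1 hold 1 copy of TCACNCCAC, whose first base lies 137 bases before the start, and 3 CCAAT boxes. Those of Cyp51 and Lss hold 1 CCAAT box each and those of Idi1 hold 2.

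Over the full windows, 19 of the 22 members with a promoter held CCAAT on either strand in at least 1 window, as did 41.1% of the 27025 genes in the table. Acaca, Acat2 and Scap held none, the window of Acaca lying far inside its annotated gene. GGGCGG, the box bound by Sp1, was likewise found in 19 of the 22 and in 38.2% of all genes. CACGTG, an E-box, was found in 5 of the 22 and in 8.09% of all genes, and TCACNCCAC in 1 of the 22, Hmgcs1, and in 1.44% of all genes. The 27025 genes were not limited to the 12881 tested in these libraries, whereas all 22 members were tested. Shares among the tested genes alone were not computed. These boxes were searched separately and may overlap, and genes with several windows had more chances to hold one. A match of letters is a description of the sequence, and the data hold no binding measurement.

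The enzymes spread far more than most genes within control, and only slightly more within FID. The highest control library over the lowest had a median of 3.48-fold over the 18 enzymes, beside 1.42-fold over all genes tested. Among the FID libraries the same ratio was 1.46-fold for the enzymes and 1.29-fold for all genes. The control range exceeded the FID range in 18 of 18 enzymes, in 26 of the 28 members and in 63.9% of all genes tested. The 2 members with a wider range in FID were Fasn and Insig2. With 3 libraries a group, whether the groups differ in spread was not tested.

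**Figure D3:**
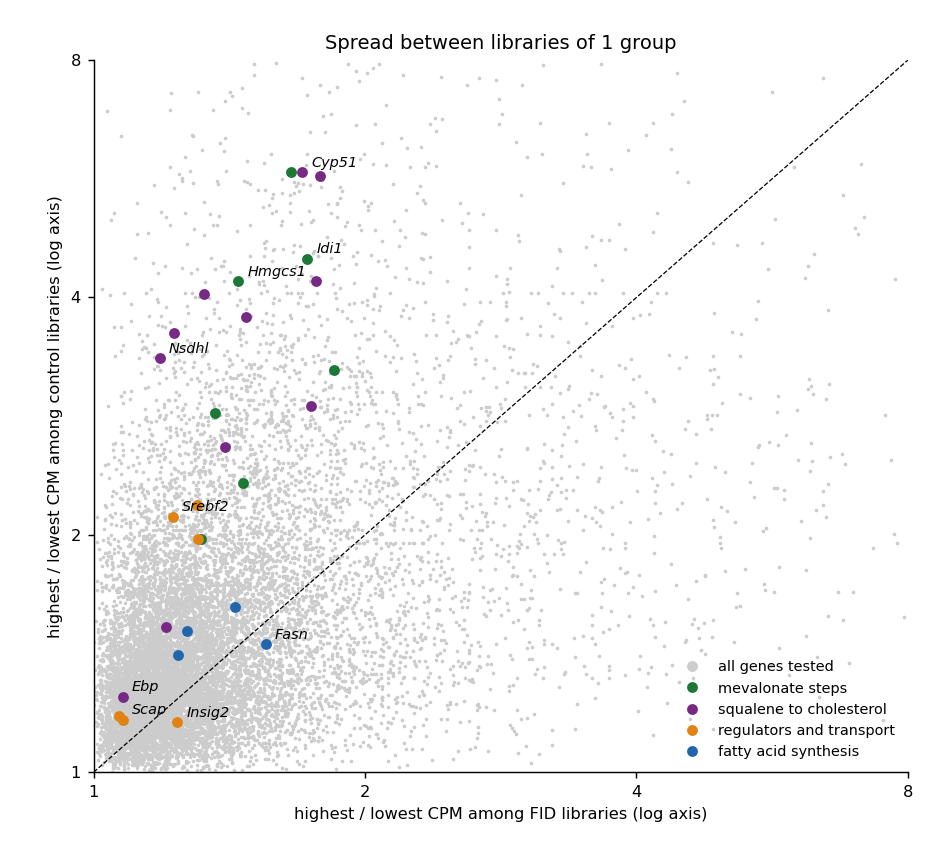
Highest over lowest CPM among the 3 control libraries (vertical, log axis) against the same among the 3 FID libraries (horizontal, log axis) for all genes tested (grey; 216 of 12881 genes lie outside the axes) and the 28 members (coloured by pathway step). The dashed line marks equal ranges. The cholesterol enzymes lie above the line, most of them between 2-fold and 6-fold in control, whereas Fasn and Insig2 lie below it.

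The sterol-sensing regulators divided into those that followed the enzymes and those that did not. Srebf2 (ENSMUSG00000022463, chromosome 15, 82147181 to 82205379, plus strand) stood at 100.5, 183 and 212 CPM in control 1 to 3, against 139, 133 and 162 CPM in FID 1 to 3. It had the control order of the enzymes in a smaller range of 2.11-fold, averaging 165 ± 57.9 CPM for control and 144 ± 15.7 CPM for FID (edgeR log2 fold change -0.20 with SE 0.26, adjusted p 0.722). Without control 1 the groups did not overlap, as 39.5% of all genes did not, and the log2 fold change was -0.45 with SE 0.14 (edgeR adjusted p 0.163). Without control 3 it was 0.04. Insig1, the INSIG form that is itself an SREBP target (ENSMUSG00000045294, chromosome 5, 28071363 to 28078662, plus strand), stood at 68.4, 80.8 and 149 CPM in control 1 to 3, against 86.1, 89.1 and 112 CPM in FID 1 to 3. Averages were 99.5 ± 43.5 CPM for control and 95.8 ± 14.2 CPM for FID (edgeR log2 fold change -0.06 with SE 0.29, adjusted p 0.934). Stard4, a carrier that moves cholesterol between membranes and is also an SREBP target, stood at 35.6, 45.3 and 70.3 CPM across control 1 to 3 and 45.4, 44.5 and 58.1 CPM across FID 1 to 3, with control 1 lowest and control 3 highest.

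Srebf1, Scap and Insig2 were nearly level across the libraries. Srebf1 (ENSMUSG00000020538, chromosome 11, 60199089 to 60222581, minus strand) stood at 61.9, 70.05 and 72.8 CPM in control 1 to 3, against 61.1, 63.1 and 65.1 CPM in FID 1 to 3, averaging 68.3 ± 5.68 CPM for control and 63.1 ± 2.03 CPM for FID (edgeR log2 fold change -0.11 with SE 0.12, adjusted p 0.626). Counts of the whole gene do not separate the forms of SREBP1 that its promoters give. Scap stood at 42.3, 40.5 and 36.3 CPM across control 1 to 3 and 44.2, 40.9 and 43.2 CPM across FID 1 to 3 and was the only member with its lowest value in control 3 (edgeR log2 fold change 0.11 with SE 0.12, adjusted p 0.662). Insig2, the INSIG form that is not a classical SREBP target, stood at 31.6, 36.6 and 33.7 CPM across control 1 to 3 and 37.9, 36.5 and 45.3 CPM across FID 1 to 3 (edgeR log2 fold change 0.23 with SE 0.14, adjusted p 0.401). Over all 6 libraries the highest value exceeded the lowest 1.19-fold for Srebf1, 1.22-fold for Scap and 1.43-fold for Insig2, against 2.11-fold for Srebf2.

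The 4 fatty acid genes had the most negative median of the steps, with lower means in FID and no member past the test. Fasn (ENSMUSG00000025153, chromosome 11, 120805846 to 120824547, minus strand) stood at 136, 191 and 198 CPM in control 1 to 3, against 142, 91.3 and 137 CPM in FID 1 to 3. FID 2 was the lowest library, and FID 1 and FID 3 lay just above control 1, the lowest control. Averages were 175 ± 33.9 CPM for control and 124 ± 27.9 CPM for FID (edgeR log2 fold change -0.51 with SE 0.22, adjusted p 0.268; DESeq2 adjusted p 0.219). The fold was 0.704 with an interval of 0.494 to 1.00. Without control 1, Fasn did not overlap between the groups, as 39.5% of all genes did not. Its log2 fold change was then -0.66 with SE 0.20 (edgeR adjusted p 0.151), and it was -0.39 without control 3.

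Acaca (ENSMUSG00000020532, chromosome 11, 84129672 to 84401651, plus strand) stood at 54.98, 83.02 and 82.02 CPM in control 1 to 3, against 61.98, 48.8 and 58.4 CPM in FID 1 to 3. Control 1 alone overlapped the FID libraries, and averages were 73.3 ± 15.9 CPM for control and 56.4 ± 6.81 CPM for FID (edgeR log2 fold change -0.38 with SE 0.19, adjusted p 0.315). With control 1 left out the log2 fold change was -0.55 with SE 0.13 (edgeR adjusted p 0.111), and with control 3 left out it was -0.28. Limma-voom with sample weights, which called 11.9% of all genes, gave Acaca an adjusted p of 0.0501, the smallest of any member in any fit. That fit gave 3 members, Acaca, Fasn and Scd2, an unadjusted p under 0.05, as it did 32% of all genes.

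The desaturases Scd1 (ENSMUSG00000037071, chromosome 19, 44394455 to 44407879, minus strand) and Scd2 (ENSMUSG00000025203, chromosome 19, 44293674 to 44306864, plus strand) are neighbouring related genes. Reads matching several places were set aside in the deposited files, so their levels are uncertain. Scd2 stood at 242, 314 and 391 CPM in control 1 to 3, against 282, 197 and 246 CPM in FID 1 to 3, averaging 315 ± 74.7 CPM for control and 242 ± 42.98 CPM for FID (edgeR log2 fold change -0.39 with SE 0.21, adjusted p 0.361). Scd1 stood at 129, 140.3 and 182 CPM in control 1 to 3, against 143, 115 and 139 CPM in FID 1 to 3, averaging 151 ± 27.8 CPM for control and 132 ± 15.00 CPM for FID (edgeR log2 fold change -0.19 with SE 0.17, adjusted p 0.575). Both were highest in control 3 and lowest in FID 2. Over the 4 genes the summed level was 562, 729 and 853 CPM in control 1 to 3 and 629, 452 and 581 CPM in FID 1 to 3, the median log2 fold change was -0.38, and control 3 exceeded control 1 by 1.41-fold to 1.62-fold. Beside these values, 6 of 10 macrophage markers were higher and 3 of 10 FAP markers lower in FID without overlap, where 13% and 12.3% of all genes were. The part of the cell makeup in the fatty acid genes was not tested. Of the adipocyte markers, Adipoq, Cidec, Lep and Retn were at or near 0 in both groups, and the 3 tested had log2 fold changes of -0.42 (Fabp4), -0.24 (Lipe) and -0.02 (Pnpla2), with overlapping groups.

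**Figure D4:**
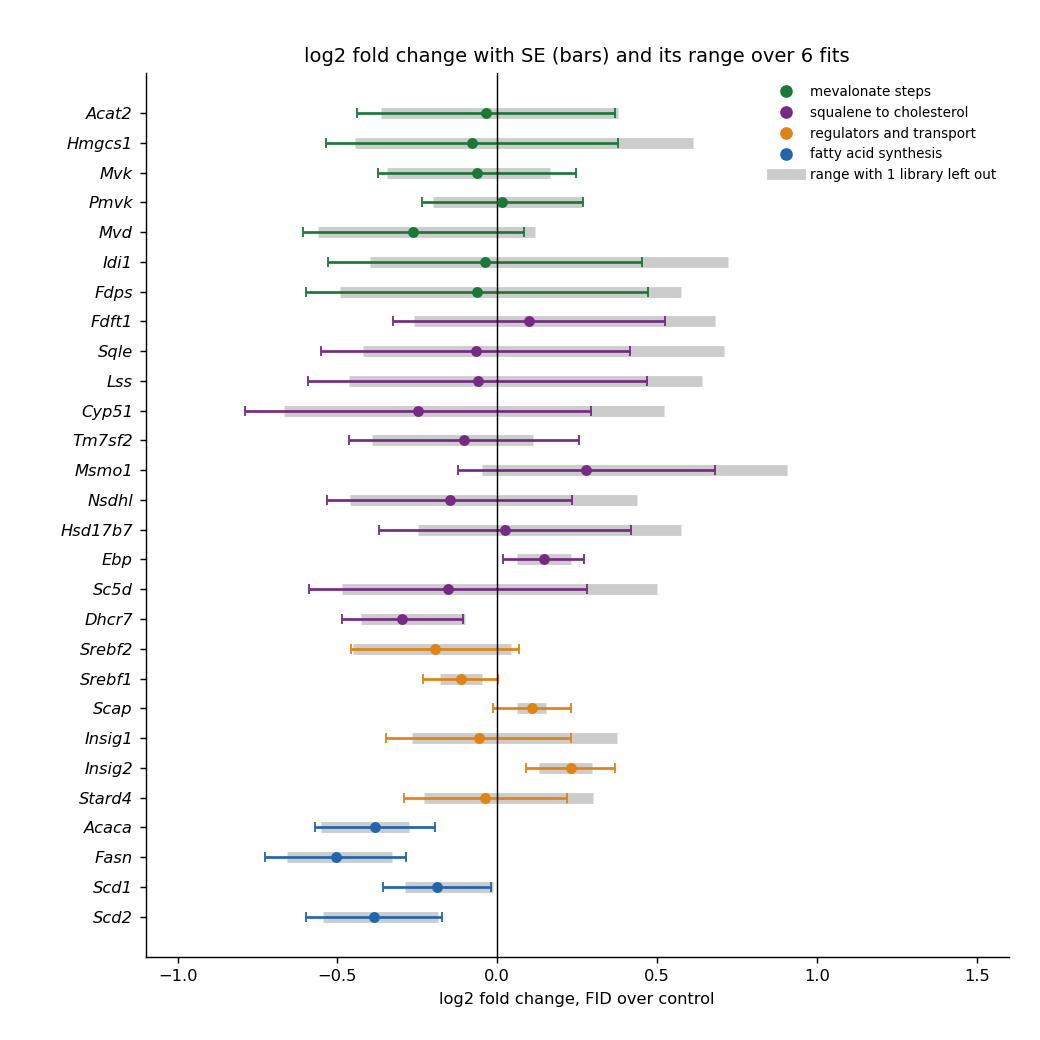
Log2 fold change of FID over control for the 28 members with its SE (points and bars, coloured by pathway step) and, in grey, the range of the estimate over 6 fits that each leave out 1 library. The 4 fatty acid genes stay below 0 in all 6 fits, and most cholesterol enzymes range over both sides of 0.

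The sign of the enzymes' difference between groups depended on which libraries and which tool were used. Without control 1 the median log2 fold change of the 18 enzymes was -0.41, with 17 below 0, and without control 3 it was 0.51, with 17 above 0. With all libraries it was -0.06 in edgeR, with 13 below 0. It was also positive without FID 2, at 0.11 with 12 above 0. With all libraries it was 0.04 under limma-voom, with 11 above 0. Adding the replicate number to the edgeR model gave 0.08, with 14 above 0. The fatty acid genes kept all 4 values below 0 in each of these fits, with medians of -0.55 without control 1 and -0.23 without control 3. In the fit without control 1, 6 members had an unadjusted p under 0.05, all lower in FID, where 19.8% of all genes had one: Mvd, Dhcr7, Srebf2, Acaca, Fasn and Scd2. None of the 28 passed the adjusted threshold in any fit that left out a library, the smallest adjusted p being 0.111.

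Per length, Scd2 was the most abundant member at 50.99 CPM per kb of annotated exon, averaged over the 6 libraries. It was followed by Hmgcs1 at 34.96, Insig1 at 31.6, Scd1 at 28.9 and Cyp51 at 28.03 CPM per kb. The lowest were Tm7sf2 at 1.15 and Lss at 1.76 CPM per kb. The length counts every annotated exon of a gene, which understates the level of genes with many little-used exons. Hmgcs1, Insig1, Scd1 and Cyp51 stood in an order that lies within their spread between libraries.

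Other genes of the same routes showed the control pattern in part. Of 30 further sterol and fatty acid synthesis genes, all tested, 0 passed edgeR's adjusted test and DESeq2 called 0. An unadjusted edgeR p under 0.05 was reached by 2 higher in FID (Por and Acsl5) and by 1 lower (Fads3), where 9.81% and 9.21% of all genes did. Their median log2 fold change was -0.12. Control 1 was lowest and control 3 highest in 10 of the 30, as in 6.58% of all genes tested. In 7 the level was more than 2-fold higher in control 3 than in control 1, as in 4.58% of all genes. Elovl6, a fatty acid elongase named here after its values were seen, stood at 17.2, 63.1 and 82.02 CPM across control 1 to 3 and 59.5, 26.9 and 44.8 CPM across FID 1 to 3. Por, the reductase that passes electrons to Cyp51 and Sqle, differed from the enzymes it serves. It stood at 147, 203 and 180.0 CPM in control 1 to 3, against 229, 259 and 286 CPM in FID 1 to 3, without overlap between the groups (edgeR log2 fold change 0.55 with SE 0.16, adjusted p 0.165). Of the 30 genes, 2 were higher in FID without overlap and 1 lower, where 13% and 12.3% of all genes were.

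Genes that process SREBP or sense sterols had a median control range of 1.44-fold, beside 1.42-fold for all genes tested. Of 15 tested, edgeR gave 0 an unadjusted p under 0.05 and DESeq2 called 0 after adjustment. None was more than 2-fold higher in control 3 than in control 1, and their median log2 fold change was 0.04. Without overlap, 2 were higher in FID and 2 lower, where 13% and 12.3% of all genes were. Their summed level lay between 780.2 and 845 CPM in all 6 libraries. Of 20 fatty acid oxidation genes, 18 were tested, and 14 had a log2 fold change above 0, where 47.8% of all genes did, with a median of 0.13. The thiolase gene Acaa2 was the 1 with an unadjusted edgeR p under 0.05, where 19% of all genes had one, and 0 were called after adjustment by edgeR or DESeq2. Without overlap, 3 were higher in FID (Acaa2, Etfa and Decr1) and 0 lower, where 13% and 12.3% of all genes were.

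Genes of cholesterol export, storage and LXR ran in part against the enzymes in the control group. Of 19 tested, control 1 was the highest and control 3 the lowest library in 5 and the reverse held in 0, where 6.55% and 6.58% of all genes did so. The exporter gene Abca1 stood at 415, 224 and 81.8 CPM in control 1 to 3, against 221, 217 and 160.3 CPM in FID 1 to 3, and Abcg1 at 117, 46.9 and 20.7 CPM in control 1 to 3, against 84.7, 136 and 76.3 CPM in FID 1 to 3, both named after their values were seen. For Abca1 control 1 was the highest and control 3 the lowest library, the opposite of the enzymes. For Abcg1 control 3 was again lowest, and FID 2 rather than control 1 was highest. Neither passed the test between the groups, with edgeR adjusted p of 0.805 and 0.522.

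Over the 19 genes of this list, 12 had a log2 fold change above 0 and 7 below, with a median of 0.12. Values are given for 3 of those with the smallest p. Nceh1, a cholesteryl ester hydrolase of macrophages, stood at 97.5, 93.5 and 68.7 CPM across control 1 to 3 and 153, 173 and 176 CPM across FID 1 to 3 (edgeR log2 fold change 0.95 with SE 0.16, adjusted p 0.122). Npc2, which carries cholesterol out of the lysosome, stood at 566, 529.6 and 572 CPM across control 1 to 3 and 807, 1595 and 1224 CPM across FID 1 to 3 (edgeR log2 fold change 1.12 with SE 0.24, adjusted p 0.136). Lipa, the lysosomal acid lipase, stood at 332, 257 and 214 CPM across control 1 to 3 and 396, 402 and 418 CPM across FID 1 to 3 (edgeR log2 fold change 0.60 with SE 0.17, adjusted p 0.164). These 3 genes were higher in FID without overlap, Lrp1, a lipoprotein receptor, was lower without overlap, and the other 15 overlapped, where 13% of all genes were higher and 12.3% lower without overlap. By adjusted p, 0 of the 19 passed edgeR's adjusted test. At an unadjusted p under 0.05 there were 4 higher and 1 lower, where 9.81% and 9.21% of all genes were. DESeq2, which called 5.93% of all genes, called 2 of the list, Nceh1 and Npc2, with adjusted p of 1.84e-04 and 0.00197. Macrophage markers were higher in the same libraries, and their part in these values was not tested.

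**Figure D5:**
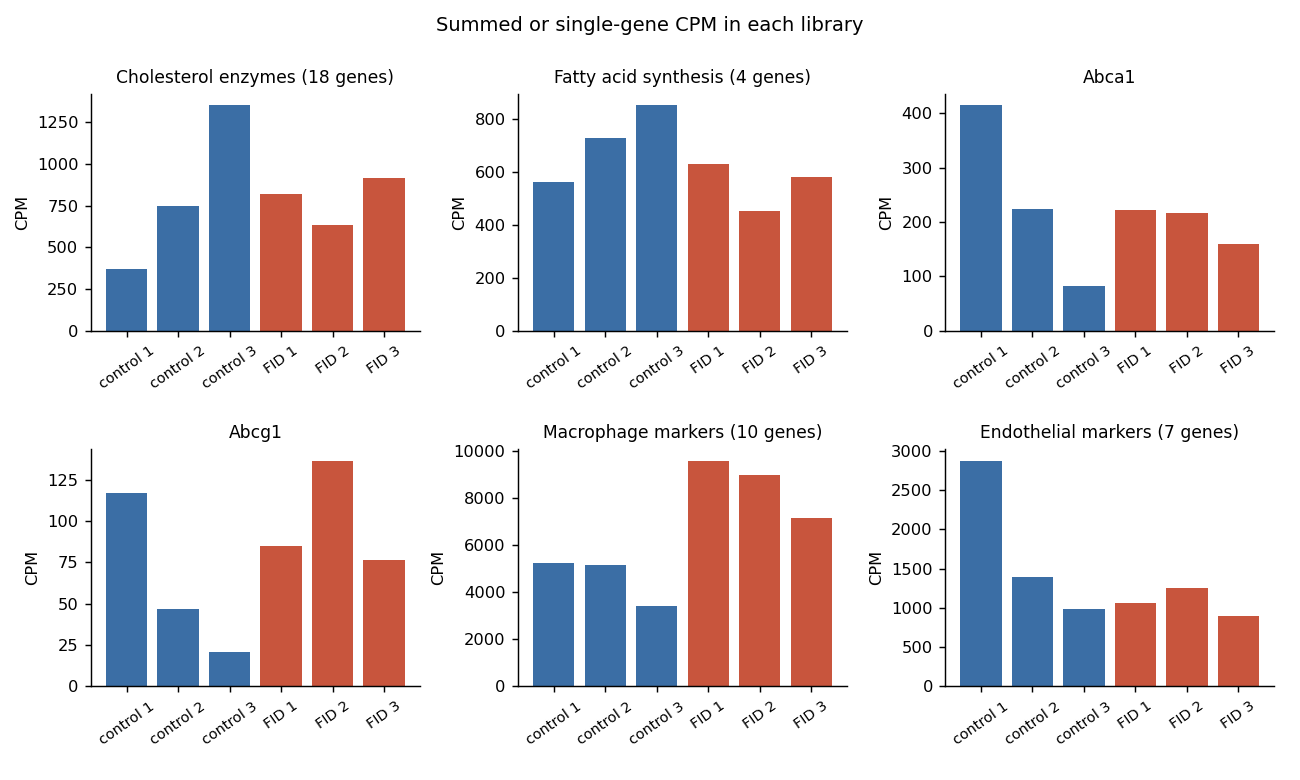
CPM in each library (bars from 0; control blue, FID red) of the 18 cholesterol enzymes summed, the 4 fatty acid genes summed, Abca1, Abcg1, 10 macrophage markers summed and 7 endothelial markers summed. The enzymes are lowest in control 1 and highest in control 3, Abca1 has the reverse order, the endothelial markers are highest in control 1, and the macrophage markers are higher in every FID library than in every control library.

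The marker lists gave these values beside the enzymes' control pattern. In control 1, 2 and 3, endothelial markers summed to 2878, 1397 and 989.6 CPM. Pericyte and smooth muscle markers summed to 1797, 778 and 693 CPM and macrophage markers to 5264, 5177 and 3413 CPM. Adipocyte markers, mostly Fabp4, summed to 878, 462 and 349 CPM. Myoblast markers summed to 116, 49.7 and 38.2 CPM and myofibre markers to 52.6, 6.28 and 16.3 CPM. Neutrophil markers summed to 41.1, 47.0 and 47.8 CPM. Sebaceous and skin markers, mostly Mgst1, summed to 76.1, 105 and 120 CPM. Of these, Krt5 and Krt14 had 15 and 14 counts in control 1 and 0 in the other libraries. FAP markers summed to 4879.6, 5335 and 5509 CPM, a sum that the abundant genes weigh most in. Taken gene by gene their order differed. The mean over the 10 genes of log2 of CPM plus 1, less each gene's mean over the libraries, was highest in control 1. It was 0.27, 0.076 and 0.088 in control 1 to 3. In FID, where the enzymes spread less, endothelial markers lay within 899 to 1257 CPM. Interferon response genes, 12 in all, summed to 323 to 1064 CPM in control, 912 CPM in FID 1 and 6517 and 3670.3 CPM in FID 2 and 3. The part of cell makeup, depth or interferon in the enzymes' levels was not tested.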

How the data were processed

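RNA libraries from samples labelled mouse skeletal muscle used 1000 ng of input (RIN over 5.6) and a kit that marks strand, per the labels' protocols. The authors deposited raw counts of reads per Ensembl gene. Per the submitters' processing notes, reads were handled with STAR, HTSeq, cutadapt, DESeq2, SAMtools and Bowtie2 2.5.4 on mm10, in unstated roles. Neither the strand setting nor the annotation release is given in these sources. Entries naming no gene, reads with several matches among them, were 9.60% to 10.9% of each file and were left out. A reference table gave symbols for 42462 of 43432 genes, and GENCODE M21 (same assembly) gave coordinates and exon lengths.

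With edgeR 4.0.16, genes passed filterByExpr (at least 10 counts, total of 15), were scaled by TMM and tested two-sided by quasi-likelihood with group as the only term. SE is the absolute log2 fold change over the square root of F, so intervals are approximate. CPM are mean ± SD over 3 libraries. Alternatives were DESeq2 1.42.0, limma 3.58.1, other scalings and filters, a replicate block and leaving out each library. Replicates differed beyond sampling noise (chi-square per degree of freedom 14.1 to 46.0), so none was taken for a copy. The fit was tested on simulated data with 1 dispersion for all genes (biological coefficient of variation 23.1%). It recovered 42% of 2-fold and 96% of 4-fold changes at an adjusted p under 0.05. Most enzymes spread more than this within control, so the simulation does not give the recovery for them. Nor does it give the recovery for other genes of wide spread. Mx1, with a log2 fold change of 3.02 and SE 0.71, had an edgeR adjusted p of 0.136. The members and lists were chosen with earlier results of these data known. Named are all 28 members and up to 5 genes with the smallest p per related list, with exceptions stated.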

Additional observations from a re-analysis of the deposited data

How the results depend on the processing

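No member passed the adjusted threshold in any of the 15 settings. Over all genes tested, edgeR called 0 in the fit as reported, with RLE or upper-quartile factors, with a stricter filter, with the replicate block, and limma-voom called 0. There were 269 calls with no filter on low counts (81.0% higher in FID), 764 with DESeq2 (61.8% higher) and 1531 by limma-voom with sample weights (57.9% higher). Leaving out a library gave 0 to 359 calls, 3 without control 1 and 359 without FID 1. Members with an unadjusted p under 0.05 numbered 1 with RLE factors (18.9% of all genes), 1 with no filter (13.8%) and 1 with DESeq2 (19.2%), each time Fasn, and 3 by limma-voom with sample weights (Acaca, Fasn and Scd2; 32% of all genes). Leaving out a library gave 0 to 6 such members (6 without control 1, where 19.8% of all genes had such a p, and 1 without control 3, where 20.8% had) and 0 to 10 whose groups did not overlap (10 of 28 without control 1, where 39.5% of all genes did not). The median ratio of control 3 to control 1 over the enzymes was 3.46 with RLE factors, 3.79 with upper-quartile factors and 3.63 with library totals alone, scalings chosen after seeing the data. The cause of these shifts was not tested.

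Signs turned for 7 members under limma-voom, to log2 fold changes of Hmgcs1 0.14, Idi1 0.0898, Fdps 0.18, Sqle 0.0899, Lss 0.066, Cyp51 0.037 and Insig1 0.0090. With sample weights 8 turned: Hmgcs1 0.13, Pmvk -0.079, Idi1 0.17, Sqle 0.22, Nsdhl 0.0051, Sc5d 0.074, Insig1 0.16 and Stard4 0.087. With the replicate number as a replicate block 11 turned: Acat2 0.052, Hmgcs1 0.13, Idi1 0.14, Fdps 0.17, Sqle 0.13, Lss 0.12, Cyp51 0.021, Nsdhl 0.0078, Sc5d 0.016, Insig1 0.017 and Stard4 0.011. Deviations of same-numbered libraries correlated at -0.013, -0.32 and 0.343, so the numbers are not taken to pair the libraries. The block called 0 genes, as did the edgeR fit without it, so its calls do not bear on pairing. Leaving out each library turned 19 members, with log2 fold changes of Pmvk -0.201 to 0.263, Fdft1 -0.261 to 0.682, Msmo1 -0.048 to 0.905, Hsd17b7 -0.247 to 0.574, Acat2 -0.365 to 0.379, Mvk -0.344 to 0.165, Tm7sf2 -0.393 to 0.111, Hmgcs1 -0.446 to 0.612, Mvd -0.562 to 0.119, Idi1 -0.398 to 0.721, Fdps -0.492 to 0.576, Sqle -0.419 to 0.709, Lss -0.463 to 0.639, Cyp51 -0.669 to 0.52, Nsdhl -0.46 to 0.438, Sc5d -0.487 to 0.50, Srebf2 -0.453 to 0.0423, Insig1 -0.266 to 0.375 and Stard4 -0.23 to 0.299. With 3 libraries a group and 5201853 counts in the shallowest, the intervals of most enzymes span about 2-fold either way.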
